A study of Mus musculus with 12 samples.

Results

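The unfolded protein response (UPR) was challenged in the livers of mice that lack ATF6a, and the comparison described here is between Atf6a-/- and wild-type animals that both received tunicamycin (TM), a drug that blocks N-linked glycosylation in the endoplasmic reticulum (ER). It rests on 6 of the 12 arrays of the series, 3 wild-type TM animals and 3 Atf6a-/- TM animals, and the other 6 are 3 vehicle animals of each genotype, which gave the levels without stress. TM was injected into the peritoneum at 1 mg/kg, the vehicle was 150 mM dextrose, and liver RNA was taken 34 h after the injection, although the source field of the labels says 8 h. Each array measured the liver homogenate of 1 animal, the animals were of variable age and of either sex, and neither was given per animal. The Atf6a-/- deletion is constitutive, so no cell type of the liver was spared, and the wild-type animals carried no deletion. All 45037 probe sets that are not array controls were compared, and 18193 genes were each represented by 1 probe set, the one brightest on average across the 12 arrays of those that name no other gene.

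ATF6a is a transcription factor that is made as a membrane protein of the ER. When misfolded proteins accumulate, it moves to the Golgi, where the proteases S1P and S2P release its cytosolic part, which enters the nucleus and, with NF-Y, binds the ER stress response element (ERSE) in front of chaperone and ER-associated degradation (ERAD) genes. The other branches of the UPR start from IRE1, which splices Xbp1 mRNA, and from PERK, which phosphorylates eIF2a and thereby raises translation of ATF4, which in turn induces CHOP. Hepatocytes secrete most plasma proteins, and they also carry out fatty acid oxidation, bile acid synthesis, gluconeogenesis, urea synthesis and detoxification.

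ERSE has the letters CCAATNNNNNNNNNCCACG, and ERSE-II has ATTGGNCCACG. Both were sought on both strands of 300 bases of promoter, 250 before and 50 after the start site of each gene in RefSeq on GRCm38.p6. A promoter was at hand for 14452 of the 18193 genes, and for 54 of the 65 genes on the lists of ER chaperones, disulfide isomerases and ERAD components. ERSE stood in 20 promoters of all these genes (0.138%) and in 10 of the 54 (18.5%), while ERSE-II stood in 9 of all (0.0623%) and in 2 of the 54. In 2 promoters ERSE overlapped ERSE-II or the element TGACGTGG (UPRE). The stretches below are shown because the same element stands before genes that were lower in Atf6a-/- livers and before genes that did not pass the test. They run 5′ to 3′ on the strand of the gene, with the element in capitals and with the reverse complement in capitals where the match is on the other strand. The first 3 belong to genes that were lower with ERSE, and the next 3 to genes with ERSE that passed the test in neither direction. Of these, Dnajc3 did pass as lower when the mean of all its probe sets was used. The seventh stretch belongs to a lower gene with ERSE-II.
Creld2 (chr15:88819500-88819558, plus strand): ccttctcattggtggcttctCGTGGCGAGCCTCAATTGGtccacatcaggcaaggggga
Derl3 (chr10:75893222-75893280, plus strand): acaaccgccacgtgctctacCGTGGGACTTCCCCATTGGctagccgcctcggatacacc
Ero1b (chr13:12565662-12565720, plus strand): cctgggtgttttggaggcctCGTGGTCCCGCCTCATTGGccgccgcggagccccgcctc
Hspa5 (chr2:34772005-34772063, plus strand): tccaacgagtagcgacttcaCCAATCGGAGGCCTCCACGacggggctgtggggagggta
Dnajc3 (chr14:118937807-118937865, plus strand): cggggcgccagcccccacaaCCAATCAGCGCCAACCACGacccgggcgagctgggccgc
Syvn1 (chr19:6046512-6046570, plus strand): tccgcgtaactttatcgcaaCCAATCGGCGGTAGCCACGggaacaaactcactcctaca
Herpud1 (chr8:94386357-94386407, plus strand): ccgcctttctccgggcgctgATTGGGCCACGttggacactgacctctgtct

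The deposited values are log2 expression estimates from RMA, so that 1 unit is a 2-fold difference, and they ran from 2.38 to 14.91. The median of an array was between 4.64 and 4.71, and a level below 4.71 is called dim here. A probe set or gene was called higher or lower at an adjusted p under 0.05 and over 1.5-fold, with limma and Benjamini-Hochberg adjustment over all probe sets. A call is said to be lost where leaving out the array of the animal named ended it. Differences are Atf6a-/- TM minus wild-type TM on the log2 scale, with the standard error of the fit after ±. That limit is the highest array median and not an estimate of background. Where the mean of the lower group is dim, the difference is taken as a lower bound of its size. Among the genes named below this holds for Abcg5, Acot5, Akr1c14, Ccl2, Ces1d, Ces1f, Cidec, Cxcl2, Otc, Ppargc1a and Proz. Replicates were tight for most genes, with a median SD of 0.16 within the wild-type TM group and 0.15 within the Atf6a-/- TM group. The first principal component, with 71.1% of the variance, placed the vehicle animals of both genotypes between -47.3 and -42.8, the wild-type TM animals at -9.77, 21.5 and -9.13, and the Atf6a-/- TM animals between 87.0 and 92.8. Wild-type TM animal 2 thus stood apart from the other wild-type TM animals on the Atf6a-/- side, and for 2925 of the 3586 genes called its level lay on that side of their mean. The Atf6a-/- TM arrays also had dimmer hybridisation spike-ins (8.43 to 8.50, against 8.54 to 8.86 in wild-type TM) and a smaller 3′ to 5′ difference of the actin control (0.88 to 1.00, against 1.12 to 1.20). Xist was high in Atf6a-/- TM animal 1 (12.3) and in no wild-type TM animal, so that sex composition was not equal. The part of these differences in the results was not tested.

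After TM the genotypes differed in 6458 probe sets, 3825 higher (8.49% of those tested) and 2633 lower (5.85%) in Atf6a-/- livers. By gene, 2048 were higher (11.3%) and 1538 lower (8.45%), around a median difference of 0.00 over all genes. After vehicle, 1 probe set passed (0.00222%), and it belongs to Atf6 itself, while 1285 had an unadjusted p under 0.05 in limma. The lower genes moved farther than the higher ones, since 377 genes were lower by over 4-fold against 114 higher, and 73 were lower by over 16-fold against 3 higher. The 3 values of each group did not overlap for 3545 genes with Atf6a-/- above (19.5%) and for 2942 with Atf6a-/- below (16.2%). Without wild-type TM animal 2, 2440 genes were higher and 1704 lower. Of all calls by gene, 57.1% were higher, which became 73.7% when arrays were scaled to the spike-ins (3249 higher and 1160 lower) and 5.18% when they were shifted to Btf3 as a reference gene (563 and 10304), since under those scalings the median over all genes shifted by 0.23 and by -0.63. In liver homogenate, fewer cells of a type and less RNA per cell cannot be told apart. Every difference below is relative to the middle of all genes. No gene called here was called the other way in either setting.

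**Figure D1:**
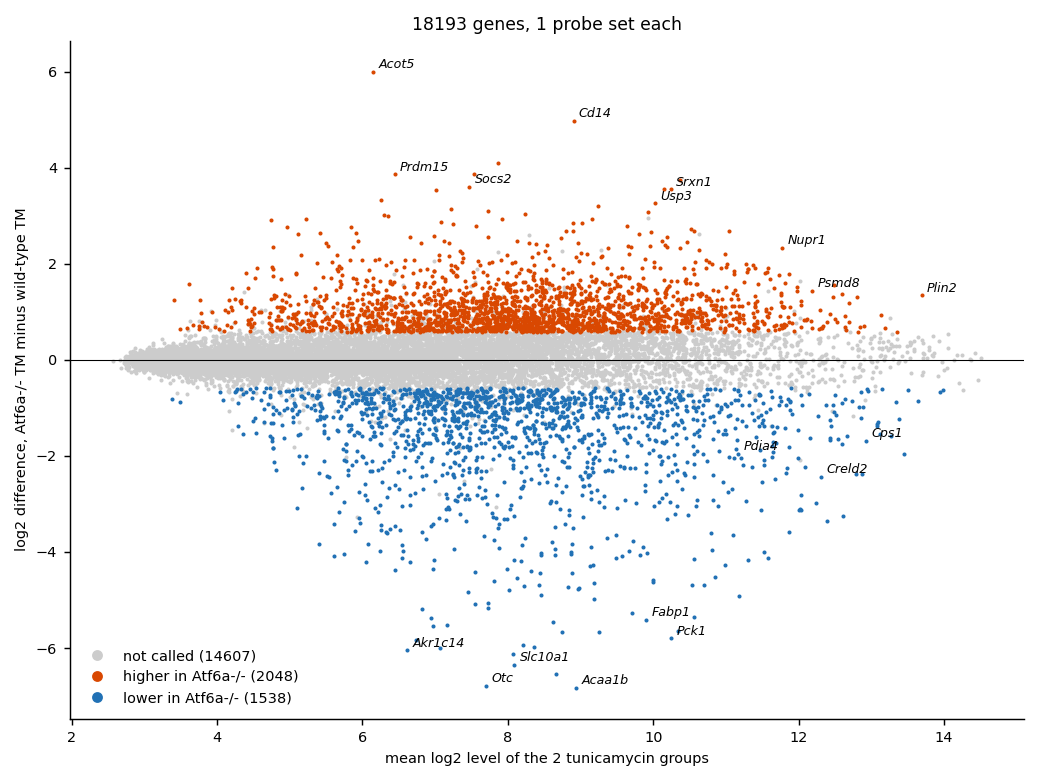
Each point is 1 of 18193 genes, with its mean log2 level in the wild-type and Atf6a-/- TM groups on the horizontal axis and the Atf6a-/- minus wild-type difference on the vertical axis, and coloured points are the 2048 genes called higher and the 1538 called lower. Points reach farther below 0 than above it at high levels, with 73 genes lower by over 16-fold against 3 higher.

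Atf6 was the check of the genotype. Its brightest probe set was at 8.42 to 8.54 in wild-type vehicle animals and at 6.60 to 6.88 in Atf6a-/- vehicle animals, which did not overlap. After TM it read 9.30, 9.72 and 9.49 in wild-type TM and 9.60, 9.81 and 9.23 in Atf6a-/- TM animals. The TM groups overlapped on this probe set, and its difference of 0.04 ± 0.15 did not pass (adjusted p = 0.922), so that this probe set separated the genotypes after vehicle and not after TM. On the other 2 probe sets of Atf6 the Atf6a-/- values lay below all wild-type values after vehicle, though neither passed, and above all of them after TM. The first of these read 7.54, 7.97 and 7.36 in wild-type TM and 9.11, 9.08 and 8.97 in Atf6a-/- TM animals and was called higher in Atf6a-/- livers (1.43 ± 0.14, adjusted p = 3.03e-05). The other read 8.45, 8.42 and 8.05 in wild-type TM and 8.89, 8.80 and 8.82 in Atf6a-/- TM animals, a difference of 0.53 ± 0.11 (adjusted p = 0.00442) that was under 1.5-fold. With the mean of the probe sets Atf6 was called higher (0.67, adjusted p = 0.000680). Which part of the gene the deletion removes was not stated in the labels, so it is not known whether the probes lie within it, and probes elsewhere in the gene check nothing. The list of sensors and membrane-bound factors of the ER, Atf6 among them, had 11 measured genes, with a median difference of 0.04. Of these, 2 were higher and 1 lower (18.2% and 9.09%, against 11.3% and 8.45% of all genes). Mbtps2, which encodes S2P, read 6.94, 7.56 and 6.99 in wild-type TM and 8.02, 8.19 and 7.83 in Atf6a-/- TM animals. All Atf6a-/- values lay above the wild-type values, and the difference was 0.85 ± 0.17. Atf6b, the paralog of Atf6, was called higher (0.61 ± 0.18, lost without any 1 of 4 arrays, adjusted p up to 0.147). Creb3l3, a liver factor processed by the same proteases, was lower (-0.97 ± 0.13). Xbp1 (-0.18 ± 0.19), Ern1 (-0.01 ± 0.29), which encodes IRE1a, Eif2ak3 (0.40 ± 0.31), which encodes PERK, and Mbtps1 (-0.10 ± 0.09), which encodes S1P, passed in neither direction. Eif2ak3 passed as higher without wild-type TM animal 2 (0.85, adjusted p = 0.00456).

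The ER chaperones, oxidoreductases and ERAD genes split in both directions rather than falling together. Of 22 measured chaperones and cochaperones, 4 were lower and 3 higher (18.2% and 13.6%, against 8.45% and 11.3% of all genes), with a median difference of -0.12. Creld2, a secreted ER protein induced by the UPR, read 13.36, 14.06 and 13.16 in wild-type TM and 10.97, 11.56 and 10.76 in Atf6a-/- TM animals, against a wild-type vehicle mean of 8.38. Its groups did not overlap, with every TM animal above the vehicle level and the Atf6a-/- animals between, and the difference was -2.43 ± 0.24, 5.40-fold lower (adjusted p = 2.63e-05). Dnajb11, the HSP40 cochaperone ERdj3, read 11.92, 11.81 and 11.47 in wild-type TM and 9.82, 10.24 and 10.48 in Atf6a-/- TM animals. It too was lower without overlap (-1.55 ± 0.17), as were Cnpy3 (-1.41 ± 0.12), a chaperone of Toll-like receptors, and Sil1 (-0.70 ± 0.16, lost at -0.56 and under 1.5-fold without wild-type TM animal 1), a nucleotide exchange factor of BiP. Among the higher members, the peptidyl-prolyl isomerase Fkbp11 read 10.29, 11.36 and 10.30 in wild-type TM and 12.32, 12.70 and 12.44 in Atf6a-/- TM animals. The Atf6a-/- values exceeded all wild-type values (1.83 ± 0.40), and Fkbp14 (1.32 ± 0.24) and Dnajc1 (0.82 ± 0.13) were also higher. Neither Fkbp14 nor Dnajc1 was called with the mean of all probe sets of the gene, whereas Fkbp11 was.

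Several major chaperones passed in neither direction. Hspa5, which encodes BiP, read 14.47, 14.32 and 14.28 in wild-type TM and 14.25, 14.60 and 14.63 in Atf6a-/- TM animals, against a vehicle mean of 12.40. These groups overlapped and all TM animals were far above the vehicle level (0.14 ± 0.16). Hspa5, like albumin below, lay close to the top of the range of the arrays (14.91). Hsp90b1, which encodes GRP94, differed by -0.43 ± 0.16 (adjusted p = 0.0876) and Hyou1, which encodes ORP150, by -0.44 ± 0.14 (adjusted p = 0.0567). Differences of -0.27 ± 0.11 for Calr, -0.26 ± 0.13 for Canx, -0.33 ± 0.19 for Dnajc3, -0.41 ± 0.19 for Sdf2l1 and 0.02 ± 0.17 for Manf did not pass either. With the mean of all probe sets of a gene in place of the brightest, Hsp90b1 (-0.60, adjusted p = 0.0284) and Dnajc3 (-0.80, adjusted p = 0.00232) were called lower. The Btf3 shift also called both lower, but it called 10304 of the 18193 genes lower, so it says nothing particular about them.

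Disulfide isomerases and oxidases (17 measured) had 4 lower and 3 higher members (23.5% and 17.6%, against 8.45% and 11.3% of all genes) and a median difference of -0.26. Pdia4, which encodes ERp72, gave the largest of these differences, -1.96 ± 0.15 (3.89-fold lower), from wild-type TM values of 11.90 to 12.56 and Atf6a-/- TM values of 10.07 to 10.32. Pdia3, the glycoprotein isomerase ERp57, read 13.08, 13.17 and 12.86 in wild-type TM and 11.66, 12.12 and 12.06 in Atf6a-/- TM animals. Its values did not overlap (-1.09 ± 0.14), and Erp44 (-1.06 ± 0.17) and the oxidase Ero1b (-0.74 ± 0.16) were lower as well. The second oxidase, Ero1a, went the other way and read 8.41, 8.22 and 7.91 in wild-type TM and 9.47, 9.74 and 9.53 in Atf6a-/- TM animals. All its Atf6a-/- values were above the wild-type ones (1.40 ± 0.14), so the paralogous oxidases differed between genotypes in opposite directions. Tmx3 (0.76 ± 0.09) and the ER peroxiredoxin Prdx4 (0.68 ± 0.11) were higher, and Pdia6 (-0.35 ± 0.16) passed in neither direction. With the mean of all probe sets of a gene, Tmx3 and Prdx4 were not called, whereas Ero1a was.

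Of 26 measured ERAD genes, 7 were higher and 2 lower (26.9% and 7.69%, against 11.3% and 8.45% of all genes), with a median of 0.23. The lower ones were Derl3, a derlin of the ER membrane, and Herpud1, a scaffold of the HRD1 ligase. Derl3 read 12.80, 12.45 and 12.40 in wild-type TM and 10.90, 10.69 and 10.90 in Atf6a-/- TM animals, from a vehicle mean of 6.51. The Atf6a-/- animals stayed below all wild-type TM animals but far above vehicle (-1.72 ± 0.28, 3.30-fold lower). Herpud1 read 12.97, 13.68 and 12.78 in wild-type TM and 11.49, 11.59 and 12.21 in Atf6a-/- TM animals, against a vehicle mean of 12.61. Every Atf6a-/- TM animal lay below the mean of the vehicle group, whereas every wild-type TM animal lay above it (-1.38 ± 0.24). Ube2g2, the ubiquitin-conjugating enzyme of ERAD, was at 8.85, 10.43 and 9.06 in wild-type TM and 10.72, 11.14 and 11.08 in Atf6a-/- TM animals, higher without overlap (1.53 ± 0.31). The remaining higher members were Ufd1 (1.31 ± 0.18), Ube2j2 (1.28 ± 0.14), Ubxn4 (1.02 ± 0.17), Edem2 (0.95 ± 0.17), Herpud2 (0.75 ± 0.14) and Ubxn8 (0.70 ± 0.14). Of the higher ERAD members, Edem2 was not called with the mean of all its probe sets. Syvn1, which encodes the ligase HRD1, differed by -0.03 ± 0.27, Edem1 by -0.31 ± 0.19 and Sel1l by -0.27 ± 0.20, and these did not pass. Each of the 3 lists thus held genes called in both directions. However, the lower share of ERAD genes was under that of all genes, and the higher share of chaperones (13.6%) was near the 11.3% of all genes.

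**Figure D2:**
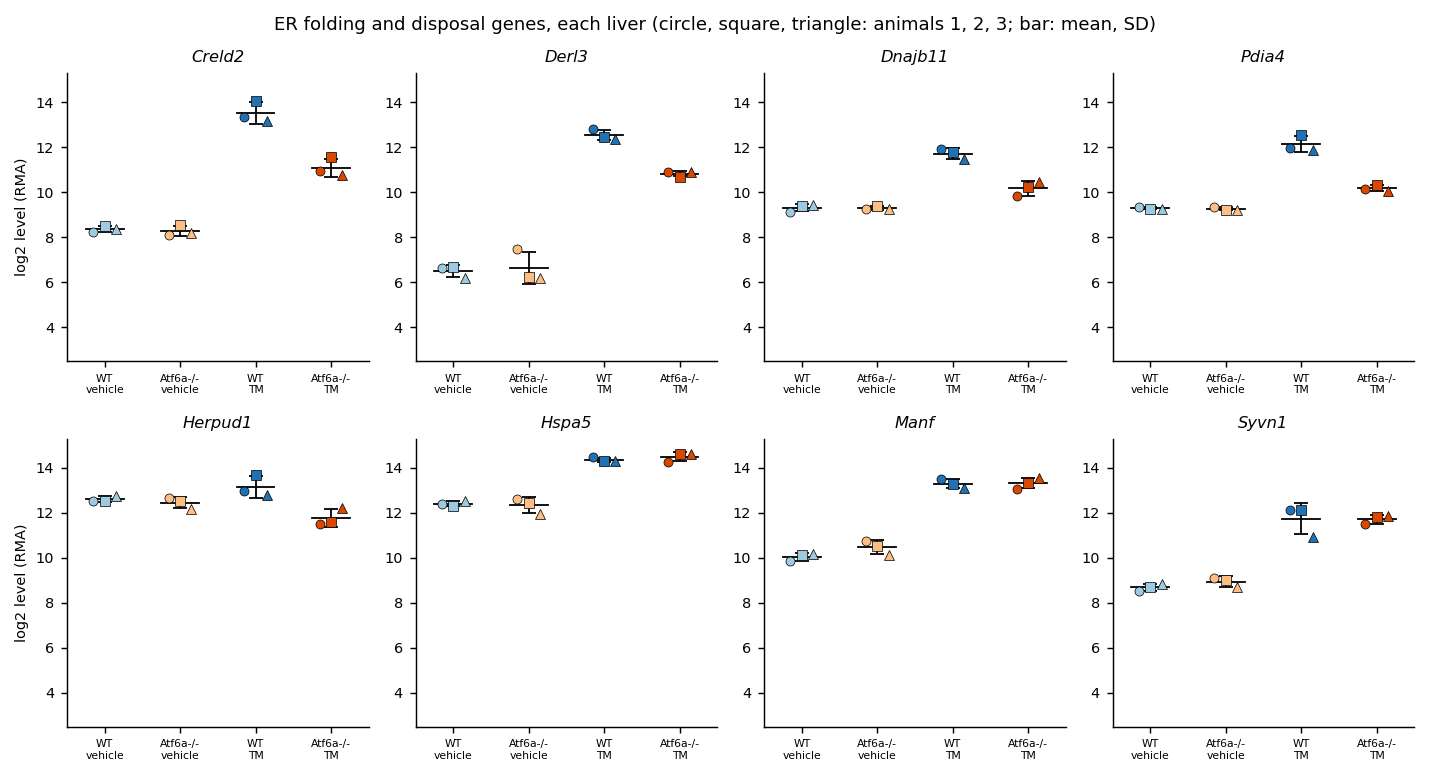
Log2 level of 8 ER genes in each animal of the 4 groups, with 1 symbol per animal (circle, square and triangle for animals 1, 2 and 3), a line at the group mean and a bar of 1 SD each way. Creld2, Derl3, Dnajb11, Pdia4 and Herpud1 were lower in Atf6a-/- TM than in wild-type TM animals with no overlap, whereas the TM groups of Hspa5, Manf and Syvn1 overlapped.

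Among the promoters at hand, ERSE stood in 3 of the 9 ER folding and disposal genes that were lower, in 7 of the 35 that passed in neither direction and in 0 of the 10 that were higher. The lower genes with ERSE were Creld2, Derl3 and Ero1b, and in all of them the match was on the strand opposite to the gene. The 7 others were Hspa5, Hsp90b1, Calr, Canx, Dnajc3, Pdia6 and Syvn1, of which Hsp90b1 held 2 sites. This split depends on the rule for probe sets, since Hsp90b1 and Dnajc3 were called lower with the mean of all probe sets of a gene. ERSE-II stood in the lower genes Dnajb11 and Herpud1. Pdia4 held neither element in its 300 bases, which says only that those letters are not in that window. Alg12, the mannosyltransferase named here after its values were seen, is the head-to-head neighbour of Creld2 on chromosome 15, with start sites 328 bases apart at 88819646 for Creld2 and 88819318 for Alg12. The ERSE at chr15:88819520-88819538 lies 126 bases before the start of Creld2 and 220 before that of Alg12. Alg12 read 7.68, 7.99 and 7.33 in wild-type TM and 8.77, 8.87 and 8.62 in Atf6a-/- TM animals, from a vehicle mean of 5.66. Around the same element, Alg12 was thus higher in Atf6a-/- livers (1.09 ± 0.16) and Creld2 lower. Of the other genes with ERSE-II, also chosen after their values were seen, Nucb1 was lower (-1.26 ± 0.11) and Krtcap2 (0.95 ± 0.12), Lgalsl (1.29 ± 0.26) and Rbm39 (0.80 ± 0.19, lost at adjusted p = 0.0533 without wild-type TM animal 3) were higher.

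Genes for entry into and passage through the secretory pathway were called higher more often than lower in each of 3 lists. Of 20 measured genes of the translocon, the TRAP complex and signal peptidase, 14 were higher and 0 lower (70.0%, against 11.3% of all genes; median 0.68). Srprb, a subunit of the receptor for the signal recognition particle, read 8.99, 9.38 and 8.64 in wild-type TM and 10.52, 10.55 and 10.66 in Atf6a-/- TM animals. The Atf6a-/- animals were above all wild-type animals (1.57 ± 0.21), and Srp19 (1.28 ± 0.15), Ssr2 (1.27 ± 0.10) and Srp14 (1.26 ± 0.13) followed. Of 35 measured genes of N-glycan synthesis and transfer, 13 were higher and 3 lower (37.1% and 8.57%; median 0.47). The lower share was near the 8.45% of all genes. Gfpt1, the first enzyme of the hexosamine pathway that makes UDP-GlcNAc, read 10.52, 10.93 and 9.65 in wild-type TM and 12.14, 12.41 and 12.21 in Atf6a-/- TM animals. Its groups did not overlap (1.89 ± 0.29), and Pgm3 (1.69 ± 0.28) of the same pathway, Gmppb (1.36 ± 0.25), which makes GDP-mannose, and Alg11 (1.12 ± 0.17) were higher, whereas Alg1 (-1.23 ± 0.12), Rpn2 (-0.62 ± 0.13, lost at -0.55 and under 1.5-fold without wild-type TM animal 1), a subunit of oligosaccharyltransferase, and Prkcsh (-0.61 ± 0.08, lost at -0.56 and under 1.5-fold without Atf6a-/- TM animal 1 and at -0.58 and under 1.5-fold without wild-type TM animal 2), a subunit of glucosidase II, were lower. Of 37 genes of COPII, COPI and ER-Golgi transport, 13 were higher and 1 lower (35.1% and 2.70%; median 0.40). Arfgap3, a GTPase activator of COPI coats, read 7.80, 8.77 and 7.37 in wild-type TM and 9.71, 9.95 and 10.91 in Atf6a-/- TM animals. It was higher in every Atf6a-/- animal (2.21 ± 0.34), with Sec22b (1.32 ± 0.19), Sec23b (1.26 ± 0.20) and Sec13 (1.12 ± 0.16) beside it, and the COPII GTPase Sar1b was lower (-0.67 ± 0.16, lost at -0.58 and under 1.5-fold without Atf6a-/- TM animal 1).

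Targets of PERK, ATF4 and CHOP were higher where they were called. Of 24 measured, 6 were higher and 0 lower (median 0.32), and without wild-type TM animal 2 these became 10 and 0. Ppp1r15a, which encodes GADD34, the phosphatase subunit that reverses eIF2a phosphorylation, read 8.39, 10.19 and 9.14 in wild-type TM and 11.81, 11.85 and 11.41 in Atf6a-/- TM animals. Nupr1, a stress-induced chromatin protein, read 9.52, 11.59 and 10.72 in wild-type TM and 12.82, 13.18 and 12.82 in Atf6a-/- TM animals, from a vehicle mean of 5.52. Neither gene overlapped between the TM groups, with differences of 2.45 ± 0.33 and 2.33 ± 0.40. The pseudokinase Trib3 (1.52 ± 0.35), the translation repressor Eif4ebp1 (1.49 ± 0.23), Atf4 itself (1.36 ± 0.23) and Sesn2 (1.02 ± 0.18) were also higher. Ddit3, which encodes CHOP, read 9.81, 12.87 and 10.89 in wild-type TM and 12.52, 13.04 and 12.94 in Atf6a-/- TM animals (1.64 ± 0.54, adjusted p = 0.0533). Here wild-type TM animal 2 reached the Atf6a-/- level while the other wild-type TM animals were lower, and without it the gene passed (2.48, adjusted p = 2.70e-05). Atf3 read 5.34, 12.37 and 10.27 in wild-type TM and 11.54, 12.34 and 11.95 in Atf6a-/- TM animals (2.62 ± 1.25), with the same animal above the Atf6a-/- range, and it also passed without that animal (4.14, adjusted p = 0.0111). Fgf21 read 5.49, 5.93 and 5.88 in wild-type TM and 7.88, 8.35 and 5.78 in Atf6a-/- TM animals (1.57 ± 0.52), where 2 of the 3 Atf6a-/- animals were high, and it passed without the third (2.35, adjusted p = 0.000290). Chac1 (0.13 ± 0.56), Atf5 (-0.52 ± 0.20) and Cebpb (-0.20 ± 0.18) passed in neither direction.

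Genes that supply amino acids and charge tRNAs followed in part. Of 13 measured genes of serine, one-carbon and asparagine synthesis, 2 were higher and 4 lower (15.4% and 30.8%, against 11.3% and 8.45% of all genes). Psat1, an enzyme of serine synthesis, read 7.75, 10.18 and 8.35 in wild-type TM and 11.16, 11.16 and 11.10 in Atf6a-/- TM animals, from a vehicle mean of 3.98. The Atf6a-/- values were close together and above every wild-type value (2.38 ± 0.44), and asparagine synthetase, Asns, was higher (1.91 ± 0.59, lost without any 1 of 6 arrays, adjusted p up to 0.136). Folate and cysteine enzymes were lower, with Shmt1 at -1.74 ± 0.29, Mthfd1 at -1.31 ± 0.23, Cth at -1.15 ± 0.26 and Shmt2 at -0.88 ± 0.14. Of 16 amino acid transporters, 3 were higher and 5 lower (18.75% and 31.25%). The cationic carrier Slc7a1 (1.85 ± 0.44) and both chains of the LAT1 exchanger, Slc7a5 (1.84 ± 0.31) and Slc3a2 (1.79 ± 0.23), were higher. The hepatocyte carriers Slc1a2 (-3.02 ± 0.23), Slc38a4 (-2.04 ± 0.34), Slc7a2 (-1.66 ± 0.31) and Slc16a10 (-1.05 ± 0.24) were lower. Of 19 cytosolic aminoacyl-tRNA synthetases, 13 were higher and 0 lower (68.4%; median 0.99), and 16 were higher without wild-type TM animal 2. Mars1 read 8.79, 8.72 and 8.54 in wild-type TM and 10.23, 10.47 and 10.61 in Atf6a-/- TM animals, against a vehicle mean of 9.09. The wild-type TM animals were all below that mean and the Atf6a-/- animals all above it (1.75 ± 0.15). Lars (1.70 ± 0.29), Gars (1.51 ± 0.24) and Kars (1.33 ± 0.13) came next.

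The C/EBP-ATF response element (CARE), TGATGNAAT, stood on either strand in 105 of the 14452 promoters (0.727%) and in 5 of the 52 promoters at hand for the 71 genes of these 4 lists (9.62%). Nupr1 and Gars, which were higher, and Fgf21 and Aars, which passed in neither direction, are shown as examples of the element before genes of both kinds. In all of them it lies on the strand opposite to the gene, so the capitals are its reverse complement.
Nupr1 (chr7:126625553-126625601, minus strand): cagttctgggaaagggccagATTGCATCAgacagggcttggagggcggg
Gars (chr6:55037950-55037998, plus strand): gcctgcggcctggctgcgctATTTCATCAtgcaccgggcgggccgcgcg
Fgf21 (chr7:45615602-45615650, minus strand): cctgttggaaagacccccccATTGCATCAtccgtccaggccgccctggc
Aars (chr8:111033709-111033757, plus strand): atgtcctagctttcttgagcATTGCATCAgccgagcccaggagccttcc
Of the 17 genes of these lists that were higher and had a promoter at hand, 3 held CARE (17.6%). It stood in 2 of the 29 that passed in neither direction (6.90%) and in 0 of the 6 that were lower. Over all genes with a promoter the higher ones did not hold it more often. CARE stood in 8 of 1691 higher genes (0.473%), in 9 of 1234 lower genes (0.729%) and in 88 of 11527 that passed in neither direction (0.763%). Aars differed by -0.21 ± 0.13, whereas Gars, with the element on the same strand, was higher.

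Lists of protein synthesis and turnover had from 2 to 31 members called higher and 0 lower. Of 39 ribosome biogenesis genes, 31 were higher and 0 lower (79.5%; median 1.04). Gar1, of the H/ACA snoRNP, read 7.71, 9.69 and 8.31 in wild-type TM and 10.70, 11.05 and 10.56 in Atf6a-/- TM animals. No wild-type TM animal reached the Atf6a-/- range (2.20 ± 0.36), though wild-type TM animal 2 was the nearest to it. The box C/D snoRNP core gene Nop58 (2.14 ± 0.40), Rrp12 (1.86 ± 0.44, lost at adjusted p = 0.0502 without wild-type TM animal 3) and Nip7 (1.82 ± 0.23) were higher too. Cytosolic ribosomal proteins themselves had 2 of 30 measured genes higher, Rpl12 (1.88 ± 0.21) and Rps25 (0.98 ± 0.20), and 0 lower. That higher share of 6.67% was under the 11.3% of all genes, although the median of the list was 0.34. Of 28 initiation factors, 12 were higher and 0 lower (42.9%; median 0.56), led by Eif6 (1.44 ± 0.29), Eif5 (1.31 ± 0.24), Eif2b3 (1.30 ± 0.17) and Eif3d (1.26 ± 0.18). Proteasome subunits had 14 of 31 higher and 0 lower (45.2%; median 0.55), with 21 higher without wild-type TM animal 2. Psmd8, of the 19S lid, read 11.38, 11.87 and 11.15 in wild-type TM and 12.66, 13.05 and 13.01 in Atf6a-/- TM animals. Its Atf6a-/- values were all above the wild-type values (1.44 ± 0.17), as were those of Psmc2 (1.35 ± 0.19), Psmd11 (1.13 ± 0.18) and Psmd14 (1.08 ± 0.25).

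Of 29 measured cytosolic and mitochondrial heat shock proteins, 12 were higher and 3 lower (41.4% and 10.3%, against 11.3% and 8.45% of all genes; median 0.47). Hspb1, a small heat shock protein, read 9.39, 10.27 and 9.40 in wild-type TM and 10.93, 12.27 and 12.10 in Atf6a-/- TM animals. Its groups did not overlap (2.08 ± 0.37), and Hsph1 (1.91 ± 0.30), the chaperonin subunit Cct7 (1.24 ± 0.19) and Hsp90aa1 (1.13 ± 0.25) were higher. The inducible HSP70 gene Hspa1b (-1.21 ± 0.28), Hspb8 (-1.09 ± 0.24) and Fkbp4 (-0.94 ± 0.16) were lower. Autophagy and lysosome genes split into 4 higher and 5 lower of 27 (14.8% and 18.5%, against 11.3% and 8.45% of all genes; median -0.02). Sqstm1, which encodes the receptor p62, read 11.90, 12.40 and 11.46 in wild-type TM and 13.01, 13.49 and 13.36 in Atf6a-/- TM animals. Lamp1, a major lysosomal membrane protein, read 12.19, 11.83 and 12.12 in wild-type TM and 9.69, 10.11 and 10.30 in Atf6a-/- TM animals. Sqstm1 was higher (1.37 ± 0.21) and Lamp1 lower (-2.02 ± 0.16), both without overlap, and Ctsb (-1.26 ± 0.18) and Ulk1 (-0.98 ± 0.17) were lower as well.

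Stress and growth genes outside the ER included some of the largest higher differences. NRF2 targets had 5 of 19 higher and 2 lower (26.3% and 10.5%, against 11.3% and 8.45% of all genes). Srxn1, which encodes sulfiredoxin, read 7.71, 9.68 and 8.01 in wild-type TM and 11.78, 12.30 and 11.97 in Atf6a-/- TM animals. All Atf6a-/- animals were above all wild-type animals (3.55 ± 0.38, 11.7-fold), and Abcc4 (3.09 ± 0.65), Pgd (2.35 ± 0.26) and Hmox1 (1.86 ± 0.29), which encodes heme oxygenase, were higher. Of 25 p53 targets and cell death genes, 10 were higher and 2 lower (40.0% and 8.00%). Cdkn1a, which encodes the cell cycle inhibitor p21, read 6.40, 10.34 and 8.40 in wild-type TM and 12.03, 11.14 and 11.23 in Atf6a-/- TM animals. The groups did not overlap, and wild-type TM animal 2 was the highest of its group (3.09 ± 0.70). Btg2 (2.68 ± 0.46), Aen (2.07 ± 0.28) and Zmat3 (1.72 ± 0.31) were higher, and Sesn1 was lower (-1.15 ± 0.20). Among 27 cell division genes 3 were higher and 0 lower, Mcm7 (1.72 ± 0.38), Mad2l1 (1.08 ± 0.17) and Pcna (0.77 ± 0.18), and 12 were dim in both TM groups. That higher share of 11.1% was no more than the 11.3% of all genes. Immediate early, AP-1 and MYC factors had 7 of 22 higher and 1 lower (31.8% and 4.55%; median 0.87). Myc read 7.49, 9.17 and 7.94 in wild-type TM and 10.15, 10.46 and 10.46 in Atf6a-/- TM animals. It was higher without overlap (2.15 ± 0.33), with Ier3 (2.48 ± 0.49), Ier5 (2.43 ± 0.31) and Fos (2.17 ± 0.54, lost at adjusted p = 0.0605 without Atf6a-/- TM animal 1).

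Genes of the NF-kB pathway and chemokines (31 measured) had 10 higher and 4 lower (32.3% and 12.9%, against 11.3% and 8.45% of all genes). Cd14, a co-receptor for lipopolysaccharide, read 7.25, 6.12 and 5.87 in wild-type TM and 11.47, 11.72 and 10.99 in Atf6a-/- TM animals. Wild-type TM animals were near the vehicle mean of 5.59 or somewhat above it and every Atf6a-/- TM animal was far above (4.98 ± 0.37, 31.6-fold). Cxcl2 (2.36 ± 0.42), Vcam1 (1.90 ± 0.19) and Ccl2 (1.29 ± 0.18) were also higher. Ccl9 (-3.78 ± 0.36), the lipopolysaccharide-binding protein Lbp (-3.06 ± 0.29) and Cxcl12 (-2.39 ± 0.16) were lower, so that Cd14 and Lbp, which act on the same ligand, were called in opposite directions. Acute-phase proteins had 1 of 24 higher and 10 lower (median -0.46). Hp, which encodes haptoglobin, read 13.81, 13.51 and 13.58 in wild-type TM and 8.60, 8.08 and 9.46 in Atf6a-/- TM animals. The Atf6a-/- animals were below every wild-type and vehicle animal (-4.93 ± 0.26), and Saa4 (-4.60 ± 0.29), Crp (-4.01 ± 0.20) and Serpina3n (-3.89 ± 0.41) were lower.

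Among the transcription factors and nuclear receptors that hepatocytes are known for, 21 of 47 were lower and 1 higher (44.7% and 2.13%, median -0.64). Ppara, the fasting-state regulator of fatty acid oxidation, read 10.14, 9.92 and 10.31 in wild-type TM and 6.24, 6.68 and 5.90 in Atf6a-/- TM animals, against a vehicle mean of 11.33. Every wild-type TM animal was below that mean and every Atf6a-/- animal was lower again (-3.85 ± 0.18, 14.4-fold). Its partner Rxra read 10.75, 10.26 and 10.75 in wild-type TM and 8.04, 7.67 and 7.92 in Atf6a-/- TM animals, and Cebpa, which encodes C/EBPa, read 10.73, 10.61 and 10.63 in wild-type TM and 7.81, 9.07 and 8.43 in Atf6a-/- TM animals. Both were lower without overlap (-2.71 ± 0.15 and -2.22 ± 0.24). The xenobiotic receptor Nr1i3, which encodes CAR, was lower by more (-3.93 ± 0.30), as were the coactivator Ppargc1a (-4.21 ± 0.41) and the clock output factor Dbp (-4.07 ± 0.31). Hnf4a read 12.02, 11.75 and 11.68 in wild-type TM and 11.22, 11.36 and 10.71 in Atf6a-/- TM animals. It was lower without overlap but by less (1.65-fold, -0.72 ± 0.16, lost at -0.53 and under 1.5-fold without Atf6a-/- TM animal 3), and Foxa2 (-0.32 ± 0.27) passed in neither direction. Rora read 9.71, 9.62 and 9.69 in wild-type TM and 11.55, 11.63 and 11.18 in Atf6a-/- TM animals and was the higher member (1.78 ± 0.12).

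**Figure D3:**
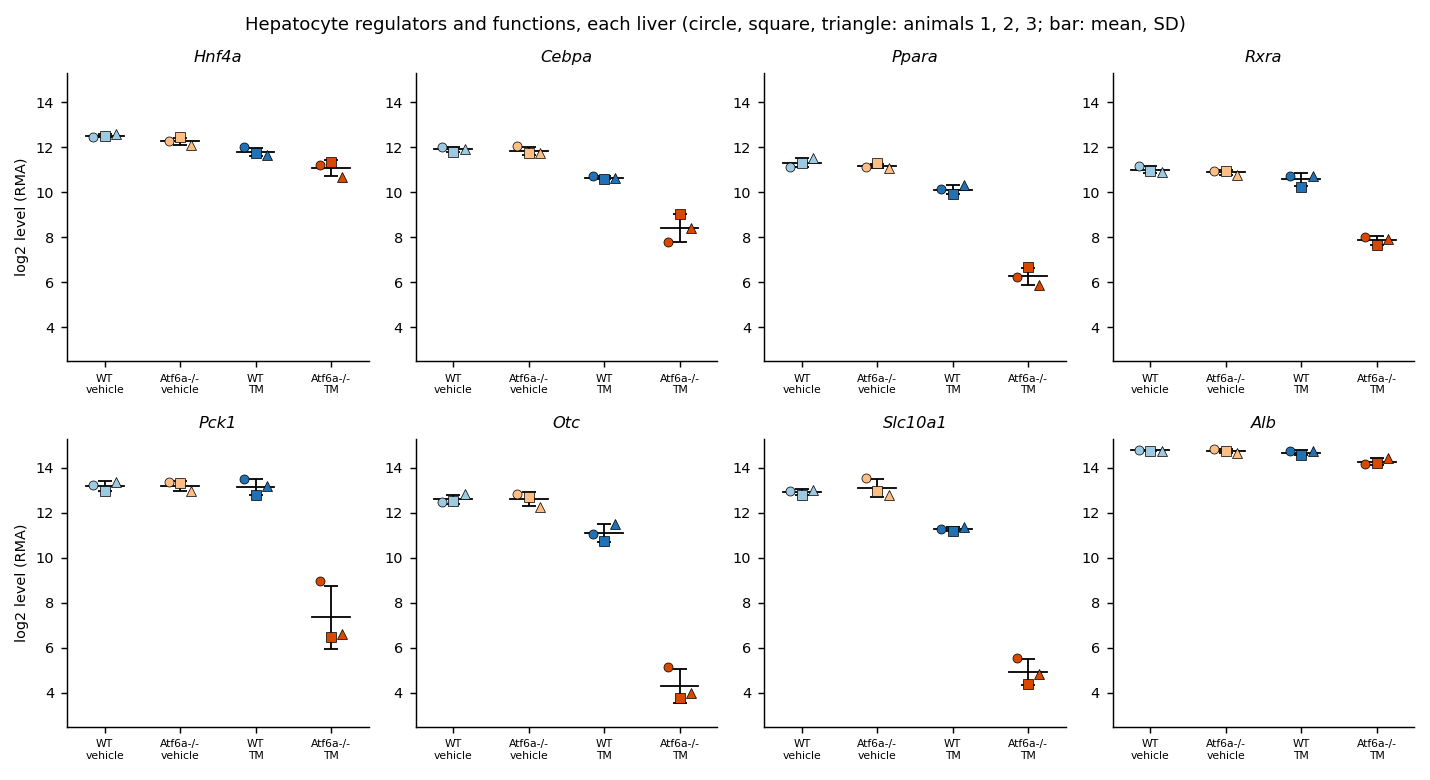
Log2 level of 8 hepatocyte genes in each animal of the 4 groups, with 1 symbol per animal (circle, square and triangle for animals 1, 2 and 3), a line at the group mean and a bar of 1 SD each way. Rxra, Pck1 and Alb stayed near the vehicle level in wild-type TM animals, and Ppara, Cebpa, Otc and Slc10a1 were already below it there, whereas in Atf6a-/- TM animals all but Alb were called lower than in wild-type TM animals.

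The short element CAAAGTCCA, a form of the HNF4 site, stood in 85 of the 14452 promoters (0.588%). It stood in 18 of the 1234 promoters of lower genes (1.46%), in 6 of the 1691 of higher genes (0.355%) and in 61 of the 11527 of genes that passed in neither direction (0.529%). For the HNF1 element GTTAATNATTAAC the count was 0 of 14452, which allowed no comparison.

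Fatty acid oxidation and ketogenesis had the widest range of differences of the 56 lists. Of its 33 measured genes, 20 were lower and 1 higher (60.6%, against 8.45% of all genes; median -0.93). Fabp1, the liver fatty acid binding protein, read 11.88, 13.12 and 12.83 in wild-type TM and 8.28, 6.45 and 6.85 in Atf6a-/- TM animals, against a vehicle mean of 14.22. No Atf6a-/- animal came near the wild-type range (-5.41 ± 0.42, 42.6-fold lower). The peroxisomal thiolase Acaa1b (-6.83 ± 0.34), the ketone body enzyme Bdh1 (-4.17 ± 0.27) and the omega-hydroxylase Cyp4a14 (-3.60 ± 0.95, lost at adjusted p = 0.0759 without Atf6a-/- TM animal 3 and at adjusted p = 0.0595 without wild-type TM animal 1) were lower too. Acot5, a peroxisomal acyl-CoA thioesterase, was dim in the wild-type TM animals at 3.08 to 3.19 and read 8.72 to 9.81 in the Atf6a-/- ones, so that its difference of 6.01 ± 0.22 is a lower bound. In fatty acid and triglyceride synthesis (23 measured), 8 were lower and 1 higher. Dgat2, which makes triglyceride, read 12.22, 11.65 and 12.45 in wild-type TM and 8.23, 8.96 and 9.42 in Atf6a-/- TM animals. The genotypes did not overlap (-3.24 ± 0.27), and Lpin1 (-2.94 ± 0.56), Lpin2 (-2.75 ± 0.19) and Fads2 (-2.71 ± 0.18) were lower, with Acaca, which encodes acetyl-CoA carboxylase 1, higher (1.06 ± 0.24).

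Lipid droplet proteins and lipases split evenly, with 6 of 17 higher and 6 lower. Plin5, a droplet coat protein of oxidative tissue, read 9.99, 9.09 and 9.03 in wild-type TM and 6.25, 5.63 and 6.67 in Atf6a-/- TM animals, and Hilpda, an inhibitor of the lipase ATGL, read 6.04, 7.17 and 6.15 in wild-type TM and 9.54, 8.79 and 8.72 in Atf6a-/- TM animals. Plin5 was lower (-3.19 ± 0.32) and Hilpda higher (2.57 ± 0.30), neither with overlap. Plin3 (2.27 ± 0.19) and Plin2 (1.35 ± 0.24) were on the higher side and Cideb (-2.01 ± 0.19) and Mgll (-1.42 ± 0.20) on the lower side. Cidec was dim in wild-type TM animals and its difference of 2.18 ± 0.17 is a lower bound. Cholesterol synthesis and uptake had 5 of 19 lower and 1 higher (median -0.11), with Stard4 (-1.81 ± 0.18) and Fdft1 (-1.35 ± 0.22) lower and the cyclase Lss higher (1.65 ± 0.27). Apolipoproteins and lipoprotein assembly genes had 15 of 21 lower and 1 higher (71.4%; median -1.46). Apoc3, an inhibitor of lipoprotein lipase, read 13.45, 13.32 and 13.40 in wild-type TM and 9.51, 8.58 and 9.56 in Atf6a-/- TM animals. Apoa5, an activator of that lipase, read 13.50, 13.46 and 13.63 in wild-type TM and 8.64, 9.97 and 9.96 in Atf6a-/- TM animals. Both were lower without overlap, Apoc3 by -4.17 ± 0.22 and Apoa5 by -4.01 ± 0.29, and Apoa4 (-2.64 ± 0.44) and Apom (-2.17 ± 0.20) were lower as well.

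Of 23 genes of bile acid synthesis and transport, 15 were lower and 1 higher (65.2% lower; median -1.38). Slc10a1, which encodes the bile acid uptake carrier NTCP, read 11.27, 11.17 and 11.35 in wild-type TM and 5.53, 4.38 and 4.83 in Atf6a-/- TM animals, against a vehicle mean of 12.93. The wild-type TM animals were below vehicle and the Atf6a-/- animals approached the level of dim probe sets (-6.35 ± 0.26, 81.4-fold lower). Cyp8b1, which makes cholic acid, read 12.23, 10.43 and 11.40 in wild-type TM and 5.32, 5.27 and 7.10 in Atf6a-/- TM animals, and Cyp7a1, the rate-limiting enzyme, read 7.63, 7.07 and 8.56 in wild-type TM and 5.05, 4.52 and 4.62 in Atf6a-/- TM animals. Both were lower (-5.46 ± 0.54 and -3.02 ± 0.38), and so were the sterol exporter Abcg5 (-5.54 ± 0.24) and the uptake carrier Slco1b2 (-4.90 ± 0.33). The higher member was Abcc4, described above. Of 27 cytochrome P450 genes of families 1 to 3, 14 were lower and 2 higher (median -1.25). Cyp3a25 read 13.16, 13.07 and 13.24 in wild-type TM and 7.85, 6.92 and 7.78 in Atf6a-/- TM animals, against a vehicle mean of 13.49. The wild-type TM animals stayed near that mean and the Atf6a-/- animals did not (-5.64 ± 0.22, 49.9-fold). Cyp2c70 (-3.71 ± 0.38), Cyp2c37 (-3.64 ± 0.33) and Cyp2c38 (-3.21 ± 0.60) were lower. Cyp2b10, a classical target of CAR, was higher (2.20 ± 0.58, lost without any 1 of 3 arrays, adjusted p up to 0.0617) although Nr1i3 was lower. Conjugating enzymes and carboxylesterases had 25 of 36 lower and 3 higher (69.4%; median -2.02). Ces1c, a plasma carboxylesterase made by the liver, read 11.50, 11.88 and 12.42 in wild-type TM and 6.55, 5.04 and 4.61 in Atf6a-/- TM animals. No value overlapped (-6.54 ± 0.40, 92.8-fold lower). Its neighbours in the family, Ces1d (-6.00 ± 0.43) and Ces1f (-5.82 ± 0.30), and Ugt2b5 (-5.66 ± 0.17) were lower, and probes for these close paralogs may share transcripts. The glutathione transferase Gstm4 was the firmest of the higher members (1.91 ± 0.13).

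Gluconeogenesis and glycogen genes had 12 of 22 lower and 1 higher (median -1.01). Pck1, the cytosolic PEP carboxykinase, read 13.49, 12.78 and 13.17 in wild-type TM and 8.97, 6.48 and 6.59 in Atf6a-/- TM animals, against a vehicle mean of 13.18. The wild-type TM animals lay around that mean and every Atf6a-/- animal was far below it (-5.80 ± 0.50, 55.7-fold lower). Its mitochondrial counterpart Pck2 read 7.10, 6.93 and 6.98 in wild-type TM and 8.46, 8.70 and 8.38 in Atf6a-/- TM animals. It was higher without overlap (1.51 ± 0.14), so that the isozymes were called in opposite directions. The glycogen synthase Gys2 (-4.68 ± 0.59) and the glucose transporter Slc2a2 (-4.12 ± 0.36) were lower. Of 14 measured genes on a list of glycolytic enzymes and transporters, 2 were lower, Tpi1 (-2.79 ± 0.24) and Ldha (-1.16 ± 0.17). Another 2 were higher, among them Slc2a1 (2.54 ± 0.29), which encodes GLUT1. Each share was 14.3%, against 11.3% of all genes higher and 8.45% lower.

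The urea cycle had 9 of 10 measured genes lower and 0 higher (90.0%; median -1.79). Otc, ornithine transcarbamylase, was at dim levels of 3.79 and 3.97 in 2 Atf6a-/- TM animals and at 5.17 in the other, against wild-type TM values of 10.74 to 11.52, and its difference of -6.79 ± 0.32 is a lower bound. Arg1, arginase, read 14.06, 13.32 and 13.53 in wild-type TM and 8.54, 8.45 and 11.55 in Atf6a-/- TM animals. Its groups did not overlap, with Atf6a-/- animal 3 nearer to wild-type than the others (-4.12 ± 0.63), and Slc25a15 (-2.40 ± 0.30) and Asl (-2.18 ± 0.34) were lower. Of 45 genes of amino acid breakdown, 32 were lower and 1 higher (71.1%; median -1.04). Hgd, of tyrosine breakdown, read 12.63, 11.84 and 12.40 in wild-type TM and 7.59, 8.44 and 7.11 in Atf6a-/- TM animals. The groups stood clear of each other (-4.58 ± 0.31), and Bhmt (-4.52 ± 0.44), Haao (-4.44 ± 0.24) and Hal (-3.83 ± 0.46) were lower, with Cdo1 higher (0.92 ± 0.19). Subunits of oxidative phosphorylation had 6 of 47 lower and 0 higher (12.8%; median -0.24), and 15 lower without wild-type TM animal 2. Ndufa9 of complex I was the farthest (-2.22 ± 0.19), followed by Atp5o (-1.29 ± 0.20), Atp5d (-1.17 ± 0.13) and Sdhd (-1.16 ± 0.18).

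Plasma proteins were described in 3 lists. Coagulation factors and inhibitors had 20 of 24 lower and 0 higher (83.3%; median -2.18). F7, which starts the extrinsic pathway, read 10.71, 9.66 and 10.54 in wild-type TM and 5.15, 5.04 and 5.25 in Atf6a-/- TM animals. Every Atf6a-/- animal was far below the wild-type animals (-5.16 ± 0.26, 35.7-fold lower), as was the case for Hrg (-5.35 ± 0.24), Klkb1 (-4.84 ± 0.21) and Proz (-5.51 ± 0.15), the last with dim Atf6a-/- values and a difference that is a lower bound. Of 21 complement genes, 12 were lower and 2 higher (57.1% and 9.52%, against 8.45% and 11.3% of all genes). The mannose-binding lectin Mbl1 (-4.36 ± 0.21), Hc (-4.30 ± 0.23), C8a (-4.28 ± 0.58) and Serping1 (-3.64 ± 0.20) were lower, and Masp1 was higher (0.80 ± 0.18). Plasma carriers and other secreted proteins had 12 of 24 lower and 1 higher (median -0.61). The binding proteins Serpina6 (-4.07 ± 0.37) for corticosteroids, Igfbp2 (-3.32 ± 0.27) for IGFs and Azgp1 (-3.13 ± 0.15) were lower. Alb, albumin, read 14.73, 14.55 and 14.76 in wild-type TM and 14.15, 14.22 and 14.43 in Atf6a-/- TM animals. Its groups did not overlap, but the difference of -0.41 ± 0.10 (adjusted p = 0.0110) was under 1.5-fold, and neither was the thyroxine carrier Ttr called (-0.33 ± 0.10). Albumin lay close to the top of the range of the arrays.

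Both zones of the lobule were touched, with 9 of 18 pericentral genes lower (median -0.87) and 13 of 18 periportal genes lower (median -1.55), and 0 higher in either. The phospho-lyase Etnppl (-5.09 ± 0.41) was lower among the periportal genes, beside Pck1, Arg1 and Hal, and the glutamate carrier Slc1a2 read 8.47, 8.15 and 7.86 in wild-type TM and 4.97, 4.69 and 5.75 in Atf6a-/- TM animals among the pericentral ones. It was lower without overlap (-3.02 ± 0.23). Genes of fetal liver and dedifferentiation had 4 of 21 higher and 1 lower. Tnfrsf12a, the receptor of TWEAK, ran from 7.98 to 11.12 in wild-type TM and from 12.28 to 12.45 in Atf6a-/- TM animals. The groups did not overlap and wild-type TM animal 2 was again the nearest (2.69 ± 0.55), and Cd24a (2.08 ± 0.45), Anxa5 (1.82 ± 0.45, lost at adjusted p = 0.0506 without Atf6a-/- TM animal 2 and at adjusted p = 0.0588 without wild-type TM animal 3) and Cd44 (0.98 ± 0.14) were higher and Krt23 lower (-2.08 ± 0.42). Tubulins, actins and cell shape genes had 9 of 32 higher and 0 lower, with Actg1 (2.00 ± 0.31), Tubb4b (1.97 ± 0.33) and Tubb6 (2.33 ± 0.51), of which Tubb6 has a second probe set called in the opposite direction.

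Clock genes split, with 4 of 18 higher and 4 lower (22.2% each way, against 11.3% and 8.45% of all genes). Arntl (1.73 ± 0.51, lost without any 1 of 4 arrays, adjusted p up to 0.123), Clock (1.10 ± 0.28, lost at adjusted p = 0.0563 without wild-type TM animal 1 and at adjusted p = 0.0735 without wild-type TM animal 3), Cry1 (1.63 ± 0.32) and Rora were higher and Dbp, Per3 (-1.56 ± 0.25), Hlf (-1.46 ± 0.20) and Tef (-0.87 ± 0.14) lower. Of 17 sex-biased genes, 0 were called in limma and 2 had an unadjusted p under 0.05, although Elovl3 differed by -3.06 ± 1.72 and Cyp17a1 by -2.79 ± 1.18, with wide errors. Iron and metal handling had 4 of 19 lower and 0 higher (21.1% lower, against 8.45% of all genes). The lower ones were Hjv (-1.91 ± 0.41), which encodes hemojuvelin, Tfr2 (-1.66 ± 0.21), Slc39a4 (-1.43 ± 0.28) and Slc39a14 (-0.87 ± 0.22, lost at adjusted p = 0.0588 without Atf6a-/- TM animal 3).

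Some calls of the lists were less firm, being lost in the fits without any 1 of 3 or more arrays, and for these the number of such arrays and the highest adjusted p over those fits are given. On the higher side they were Saa1 (2.34 ± 0.73, 10 arrays, adjusted p up to 0.168) among acute-phase proteins, Angptl4 (0.69 ± 0.21, 5 arrays, adjusted p up to 0.130) among lipoprotein genes, Cyp2a12 (0.94 ± 0.26, 4 arrays, adjusted p up to 0.0826) among cytochromes P450, Gstm2 (0.98 ± 0.29, 5 arrays, adjusted p up to 0.140) and Gstm6 (0.83 ± 0.26, 9 arrays, adjusted p up to 0.183) among conjugating enzymes, and Aldoa (0.97 ± 0.31, 9 arrays, adjusted p up to 0.136) of glycolysis. Plasma protein genes gave C4bp (0.80 ± 0.25, 8 arrays, adjusted p up to 0.129) and Serpina7 (1.20 ± 0.33, 3 arrays, adjusted p up to 0.102), tubulins gave Tubb2a (1.90 ± 0.57, 8 arrays, adjusted p up to 0.148) and neutrophil markers gave S100a9 (1.82 ± 0.54, 4 arrays, adjusted p up to 0.136). On the lower side they were Gsta2 (-2.03 ± 0.59, 4 arrays, adjusted p up to 0.138) and Gclc (-0.65 ± 0.18, 3 arrays, adjusted p up to 0.115) among NRF2 targets, Klf10 (-1.59 ± 0.50, 7 arrays, adjusted p up to 0.133) among immediate early factors, Nfkbia (-0.64 ± 0.17, 4 arrays, adjusted p up to 0.0985) of the NF-kB pathway, G0s2 (-1.73 ± 0.51, 5 arrays, adjusted p up to 0.135) among droplet proteins, Cyp51 (-1.18 ± 0.31, 3 arrays, adjusted p up to 0.0610) of cholesterol synthesis, Lamp2 (-0.78 ± 0.21, 4 arrays, adjusted p up to 0.0986) of the lysosome and Hand2 (-0.71 ± 0.18, 3 arrays, adjusted p up to 0.0629) among stellate cell markers. Of the 258 named genes that were called, 24 lost the call without wild-type TM animal 3, 20 without Atf6a-/- TM animal 3 and 11 without wild-type TM animal 2.

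**Figure D4:**
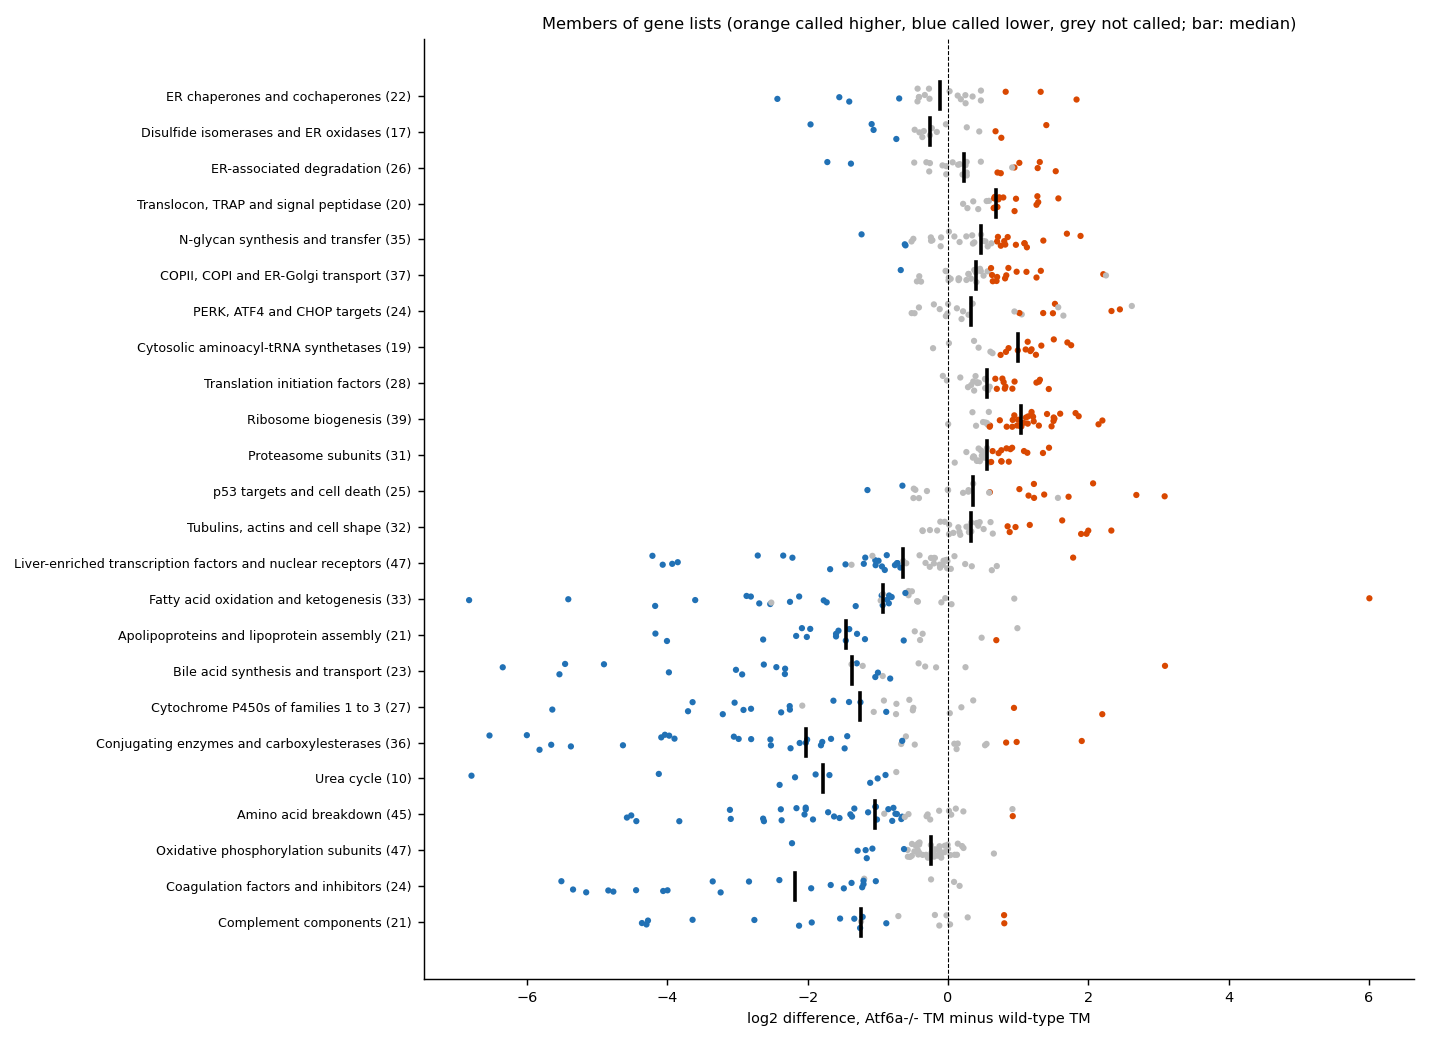
Log2 difference, Atf6a-/- TM minus wild-type TM, of each measured gene in 24 of the gene lists, with 1 point per gene, coloured where it was called, and a tick at the median of the list. Medians run from -2.18 for coagulation factors to 1.04 for ribosome biogenesis, around 0.00 for all genes.

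Outside the lists, the genes with large higher differences were of several kinds. Socs2, an inhibitor of growth hormone signalling, read 4.62, 5.69 and 6.70 in wild-type TM and 9.04, 9.0 and 9.78 in Atf6a-/- TM animals, against a vehicle mean of 8.28. All wild-type TM animals were below that mean and all Atf6a-/- TM animals above it (3.61 ± 0.45, 12.2-fold). The MAP kinase phosphatases Dusp5 (3.55 ± 0.36) and Dusp4 (2.99 ± 0.21), the small GTPase Rras2 (3.56 ± 0.29), the transporter Slc16a6 (4.10 ± 0.23) and the nuclear noncoding RNA Neat1 (2.94 ± 0.48) were higher too. On the lower side, Upp2 (-6.12 ± 0.41), a uridine phosphorylase, Akr1c14 (-6.05 ± 0.23), Inmt (-5.99 ± 0.48), a methyltransferase, and Aldh8a1 (-5.93 ± 0.15) were among the largest. Retsat, retinol saturase, read 12.81, 12.07 and 12.14 in wild-type TM and 6.69, 6.87 and 7.63 in Atf6a-/- TM animals, against a vehicle mean of 12.43. The wild-type TM animals lay near that mean and the Atf6a-/- animals far below it (-5.28 ± 0.26).

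The make-up of the homogenate was described with markers. Hepatocyte markers had 6 of 11 lower and 0 higher, and their mean level was 12.69 to 13.04 in wild-type TM and 11.42 to 11.75 in Atf6a-/- TM animals. The lower ones were Fabp1, Asgr1 (-2.04 ± 0.26) and Asgr2 (-0.98 ± 0.20), the asialoglycoprotein receptor, Cps1 (-1.69 ± 0.32), Apob (-1.60 ± 0.22) and Hnf4a, whereas Alb, Ttr, Apoa1 (-0.36 ± 0.19), Tat (-0.25 ± 0.19) and Serpina1c (-0.63 ± 0.23) were not called, the last of which passed without Atf6a-/- TM animal 3 (-0.88, adjusted p = 0.0114). Kupffer cell and macrophage markers had 2 of 16 higher and 0 lower (12.5% higher, near the 11.3% of all genes), with mean levels of 7.22 to 7.50 against 7.36 to 7.70. Cd68 read 5.56, 7.23 and 6.56 in wild-type TM and 9.0, 9.24 and 9.90 in Atf6a-/- TM animals. It was higher without overlap (2.93 ± 0.34), and Ctss (0.72 ± 0.17) was higher, but the defining Kupffer markers Clec4f (-0.26 ± 0.26), Vsig4 (-0.40 ± 0.30), Marco (-0.04 ± 0.49) and Adgre1 (-0.12 ± 0.22) were not called.

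Neutrophil markers had 2 of 10 higher and 0 lower, S100a8 (2.22 ± 0.44) and S100a9, with mean levels of 5.10 to 5.49 against 5.37 to 5.97, and Elane (-0.22 ± 0.16), Mpo (-0.07 ± 0.09), Camp (-0.04 ± 0.10) and Ltf (0.18 ± 0.15) were not called. For markers of lymphocytes (12 measured), endothelial cells (14), cholangiocytes (7), red cells (4) and pancreas or fat (5), 0 were called in limma in either direction, with 1, 5, 1, 0 and 0 at an unadjusted p under 0.05. For stellate cells 1 of 14 was higher, Ngfr (0.97 ± 0.11), and 1 lower, Hand2 (7.14% each way, under the shares of all genes). Neither Ngfr nor Hand2 was called with the mean of all probe sets of the gene. Mean levels were 6.97 to 7.03 in wild-type TM and 6.76 to 7.22 in Atf6a-/- TM animals for endothelial cells, 6.83 to 7.21 and 6.98 to 7.35 for stellate cells, and 4.68 to 4.86 and 4.56 to 4.73 for cholangiocytes. The part of a changed cell make-up in the differences of the NF-kB, acute-phase and hepatocyte lists was not tested.

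**Figure D5:**
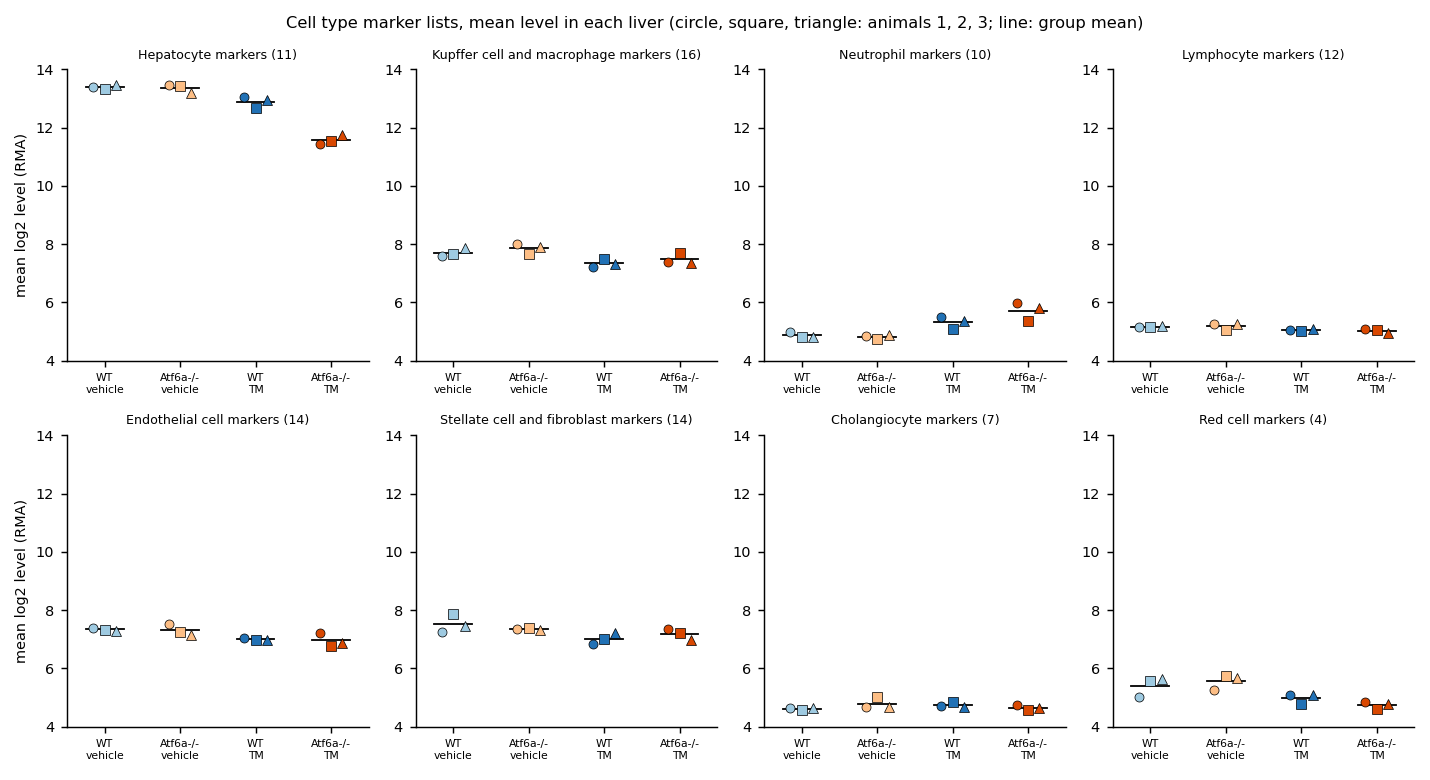
Mean log2 level of the markers of each cell type in each animal of the 4 groups, with 1 symbol per animal (circle, square and triangle for animals 1, 2 and 3) and a line at the group mean. Hepatocyte markers sit at 11.42 to 11.75 in Atf6a-/- TM animals, below the 12.69 to 13.04 of wild-type TM animals, while the endothelial, stellate and Kupffer cell means overlap between the TM groups.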

How the data were processed

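Liver RNA of 12 mice, 3 in each of 4 groups, was measured on Affymetrix mouse arrays. Log2 values were deposited, which the authors computed by RMA (their processing notes name affy and limma without versions), and RMA sets all arrays to 1 distribution, so an overall shift between groups could not be seen. Of 45101 features, 64 AFFX controls were left out. No further normalization or filter was applied. In the platform annotation, 34945 probe sets name a single gene, 932 several and 9160 none.

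R 4.3.3 and limma 3.58.1 (lmFit, contrasts.fit, eBayes) were used to fit group means over the 12 arrays, with 8 residual degrees of freedom. All tests were two-sided, and p-values were adjusted by Benjamini-Hochberg over the 45037 probe sets. Tested on simulated data for this comparison with all 45037 probe sets, the fit recovered 84% of changes of 1 log2 unit and 100% of changes of 2, with 7 false calls. Only 100 probe sets were changed at each size, with normal noise independent between probe sets and no animal set apart. The real arrays differ in these respects, so the shares are not the power of this comparison. Promoter sequences are from RefSeq (GRCm38.p6), and motifs were sought by their letters on both strands. Python 3.11.15 with numpy 2.4.6, pandas 2.3.3 and matplotlib 3.10.9 served for tables and figures.

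The members and the 56 gene lists (1184 of 1304 genes measured) were chosen with earlier results of these data known. From each list the text names up to 4 genes with the largest called differences each way, and from the lists of ER folding, ERAD, PERK targets, liver factors and markers any member. Of all genes it draws on the 25 largest differences each way among genes with a mean of at least 7 in the higher group, and genes named for a promoter element were chosen after their values were seen. The number of arrays limits the precision, and no source says whether the animals were littermates. Alternatives changed the normalization, the filter, the model, the test, the rule for probe sets and the arrays included. The median centring, filter and model alternatives are named in the closing section only where they moved a result. Whether same-numbered animals were pairs was checked by the correlation of their deviations from the group means.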

Additional observations from a re-analysis of the deposited data

Results flagged for a closer look

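Atf6 itself gave the flagged values, because the TM response of its probe sets differed between genotypes by a test of the interaction of genotype and treatment. The interaction, in log2 units, was 1.75 for the probe set with the highest mean and 1.99 and 1.23 for the other 2. In the probe set with the highest mean, wild-type animals read 8.42 to 8.54 after vehicle and 9.30 to 9.72 after TM, and Atf6a-/- animals read 6.60 to 6.88 after vehicle and 9.23 to 9.81 after TM. In the other 2 probe sets the Atf6a-/- animals were above the wild-type animals after TM, by 1.43 and 0.53 in the same order. No probe set can be assigned to the deleted or the retained part of the gene from the sources used here.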

How the results depend on the processing

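The call counts depended most on the reference, the threshold and the test. A shift to Btf3, which was itself called higher in Atf6a-/- TM animals, gave 27715 probe sets and 10867 genes, a 2-fold threshold gave 3277 and 1869, and the methods' t-test with Benjamini-Hochberg adjustment gave 1253 and 730, with 129 genes of the lists called in place of 527. At the methods' own unadjusted threshold that test gave 5884 probe sets and 3296 genes. Leaving out single arrays gave 5236 to 7515 probe sets, 2934 to 4144 genes, 451 to 592 genes of the lists, 0 to 4 probe sets after vehicle and an Atf6 interaction of 1.61 to 1.91. The spike-in scaling was added after the data were seen. No called gene was called the other way in any alternative. Of the 258 named calls, the adjusted t-test lost 170, the 2-fold threshold 41, the Btf3 shift 36 and the mean of probe sets 18. Besides the members of the ER lists given above, the calls lost with the mean of probe sets were Angptl4, Btf3, Cd44, Cyp51, Fkbp4, Hand2, Masp1, Ngfr, Psmd11, Slc39a14, Tef, Tubb4b and Tubb6. No list median of over 1.5-fold turned its sign, while 39 of 1288 alternative values of the medians moved by more than the spread between animals. Many of these values could not move. The medians were relative to all genes of each setting, so median centring, the Btf3 shift and the spike-in scaling left them unchanged. Leaving out a vehicle array, fitting the TM arrays only and the replicate block also leave the difference between the TM groups as it was. The counts therefore say little about stability in those settings. On the strand of the gene alone, ERSE stood in 0.0692% of promoters.

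With the replicate block, 6628 probe sets, 3691 genes and 543 genes of the lists were called, 2 of the 258 named calls were lost and the Atf6 interaction was 1.75. Deviations of same-numbered TM animals correlated at -0.09, 0.17 and -0.02. With so few animals per group, deviations from the group means are not independent, so these values cannot decide whether the numbers mark pairs.

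Some uncalled genes turned sign, with differences here relative to the median of all genes in each setting. Atf6 was at -0.0026 with Xist as a covariate, -0.053 with cyclic loess and -0.041 with a second quantile normalization, and Ern1 was at 0.068 with the covariate and 0.064 with the mean of probe sets. Manf was at -0.027 with cyclic loess and -0.0083 with a filter on dim probe sets, Marco at 0.230 with array weights and 0.175 with the mean of probe sets, Syvn1 at 0.309 and, with quantile normalization, 0.021, and Xist at -0.0064 with itself as covariate. Without single arrays the ranges were -0.37 to 0.11 for Adgre1, -0.10 to 0.19 for Atf6, -0.53 to 0.86 for Chac1, -0.53 to 0.10 for Clec4f, -0.40 to 0.22 for Ern1, -0.10 to 0.13 for Manf, -0.42 to 0.66 for Marco, -0.50 to 0.0052 for Sel1l, -0.44 to 0.19 for Syvn1 and -0.086 to 3.37 for Xist. The cause was not tested. The limit of 4.71 is the highest array median and not an estimate of background. Differences against a level below it were taken as lower bounds by that rule.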
